A study of Mus musculus with 6 samples.

Results

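The integrin chains described here are the 10 mouse genes Itga4, Itga5, Itga9, Itgal, Itgam, Itgav, Itgax, Itgb2, Itgb5 and Itgb7, taken by gene symbol from an Affymetrix Mouse430A_2 array. The array's annotation assigned 20 probe sets (groups of short probes that report 1 transcript) to them, out of 22626 probe sets tested, and the 10 genes stand among 12393 with a probe set of their own. Expression was measured in 3 samples of spermatogonial stem cells and 3 of total testicular cells, as their titles call them, with 1 array each. All came from mice with the CD4HAglo transgene, in which a truncated promoter of Stra8, a germ cell gene, drives a surface marker with human CD4 domains. Stem cell samples were the fraction that anti-CD4 magnetic beads retained, with 50 males pooled for each preparation. The other samples are total testicular cells by title but CD4-negative cells by source description, and strain, age and the number of males behind them are not given in the sources used here. The replicates' independence is not stated either, so p-values measure the spread between these arrays, which may in part be technical.

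Integrins are cell surface receptors made of 1 alpha and 1 beta chain, which bind matrix proteins or counter-receptors on other cells and link them to the cytoskeleton. The beta 2 chain (Itgb2) is made almost only by leukocytes and pairs with alpha L, alpha M or alpha X (Itgal, Itgam, Itgax) to bind ICAMs, complement fragments and fibrinogen. The beta 7 chain pairs with alpha 4 to bind VCAM-1 and MAdCAM-1, and alpha 4, alpha 5, alpha 9 and alpha V also pair with the beta 1 chain (Itgb1) to bind fibronectin and other matrix proteins. Alpha V with beta 5 (Itgb5) is a vitronectin receptor that also binds MFG-E8 on dying cells, and it is present in phagocytes, Sertoli cells and many other cell types.

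Values are log2 expression levels. A difference is the stem cell mean minus the total testicular cell mean, and the threshold is a limma adjusted p of 0.05 over all probe sets. Background was set at 2.37, below which 95% of the values of the 27 probe sets for bacterial controls fell, and 71.3% to 75.0% of probe sets on each array lay above it. Stem cell arrays correlated with one another at 0.970 to 0.984 and total testicular cell arrays at 0.992 to 0.995. Of 7 measured markers of undifferentiated spermatogonia, 0 rose by limma, and at an unadjusted p under 0.05 there were 0 higher and 1 lower (median difference −0.15). Their median level was 2.59 to 2.83 on the total testicular cell arrays and 2.40 to 2.71 on the stem cell arrays, close to background. The brightest, Id4, lay well above background and differed by −0.55 (limma adjusted p = 0.232). Of 12 macrophage markers, 10 rose. Their median level was 3.37 to 3.81 on the total testicular cell arrays and 7.16 to 9.14 on the stem cell arrays, where replicate 1 departed most. No enrichment of spermatogonial markers was thus detected in the stem cell group, which is named here by its title.

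Of the 10 integrin chains 2 rose, Itgb2 and Itgb5, and 0 fell, while 1.63% of all genes rose and 0.137% fell. At an unadjusted p under 0.05 by limma, 3 of the 10 were higher and 0 lower, beside 11.8% of all genes higher and 13.1% lower. The median difference over the 10 was 0.12, beside −0.05 over all genes. The groups did not overlap, with all stem cell arrays higher, for Itgb2, Itgb5 and Itgav, and 13.8% of all genes had such a pattern. In 0 of the 10 all stem cell arrays were lower, beside 19.2% of all genes. Those 3 chains were also the ones higher in stem cells by 1 log2 unit or more, beside 4.58% of all genes higher by as much. Signal limits much of the set: 16 of the 20 probe sets lay less than 1 log2 unit above background, or below it, on all 3 total testicular cell arrays, and 5 were below it on all 6 arrays. In a bulk sample, fewer cells of a type and less RNA per cell cannot be told apart.

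**Figure D1:**
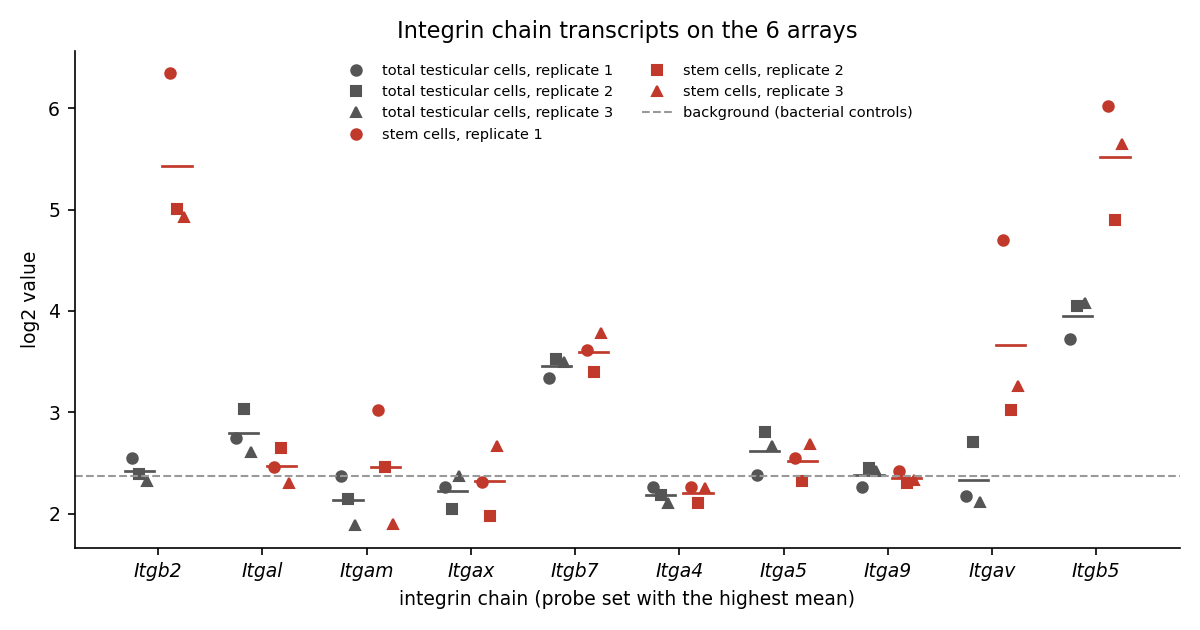
Log2 value of each integrin chain (vertical axis) on each array, for the probe set with the highest mean of each gene; symbols mark the replicate, short lines the group means, and the dashed line the background of 2.37. Itgb2, Itgb5 and Itgav have all stem cell points above all total testicular cell points, and most other chains sit near the background.

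Itgb2, the shared beta chain of the leukocyte integrins, was at 6.34, 5.01 and 4.93 on stem cell arrays 1, 2 and 3. On the total testicular cell arrays it was at 2.55, 2.39 and 2.32, close to background. Every stem cell value lay more than 2 log2 units above every total testicular cell value, and stem cell replicate 1 was the highest. The mean was 5.43 ± 0.79 (SD, n = 3) against 2.42 ± 0.11 (SD, n = 3), a difference of 3.01 ± 0.34 (SE, limma adjusted p = 0.00642) or 8.04-fold. In the lower group 2 of 3 arrays were above the pooled background, by a small margin, and each of the 3 was above its own array's control level. Within fluidics round 1, a set of arrays washed together, Itgb2 differed by 3.91 (1 stem cell array against 2), and within round 3 by 2.62 (1 against 1). With the round as a block it differed by 3.36 (adjusted p = 0.00437). Stem cell replicate 3 was alone in its round and does not enter that value. With the fluidics module, the wash position, as a block Itgb2 differed by 2.69 and missed the threshold. Only 1 module held both groups, so this value rests on stem cell replicate 2 against total testicular cell replicate 3.

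The alpha chains that pair with beta 2 did not pass. Itgam, the alpha M chain of the complement receptor CR3 on myeloid cells, was at 3.02, 2.46 and 1.90 on the stem cell arrays and at 2.37, 2.15 and 1.88 on the others. Only stem cell replicate 1 stood clear of background, and the groups overlapped. Its difference was 0.32 (95% interval −0.25 to 0.90, limma adjusted p = 0.472). It moved with single arrays, to 0.0449 without stem cell replicate 1 and 0.605 without stem cell replicate 3, and was 0.643 with the fluidics round as a block, without passing in any of these. Itgal, the alpha L chain of LFA-1 on lymphocytes and other leukocytes, was at 2.46, 2.65 and 2.31 on the stem cell arrays and at 2.75, 3.03 and 2.61 on the others. Here the stem cell side was the lower one, with overlap (−0.32, interval −0.69 to 0.04, adjusted p = 0.261). The sign of Itgal turned with the fluidics module as a block (0.0451), which rests on 1 stem cell array against 1. Itgax, the alpha X chain found on dendritic cells and some macrophages, was at 2.31, 1.98 and 2.67 against 2.27, 2.04 and 2.37. The Itgax groups overlapped fully (0.09, interval −0.31 to 0.50, adjusted p = 0.795), and its sign turned to −0.02 when arrays were centred on their medians, a step that moved the median gene by −0.11.

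Each of these 3 alpha chains has 1 probe set, and each read less than 1 log2 unit above background on every array. A rise of the Itgb2 size lay outside all 3 intervals as measured by these probe sets, although a probe set at background can miss a change.

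**Figure D2:**
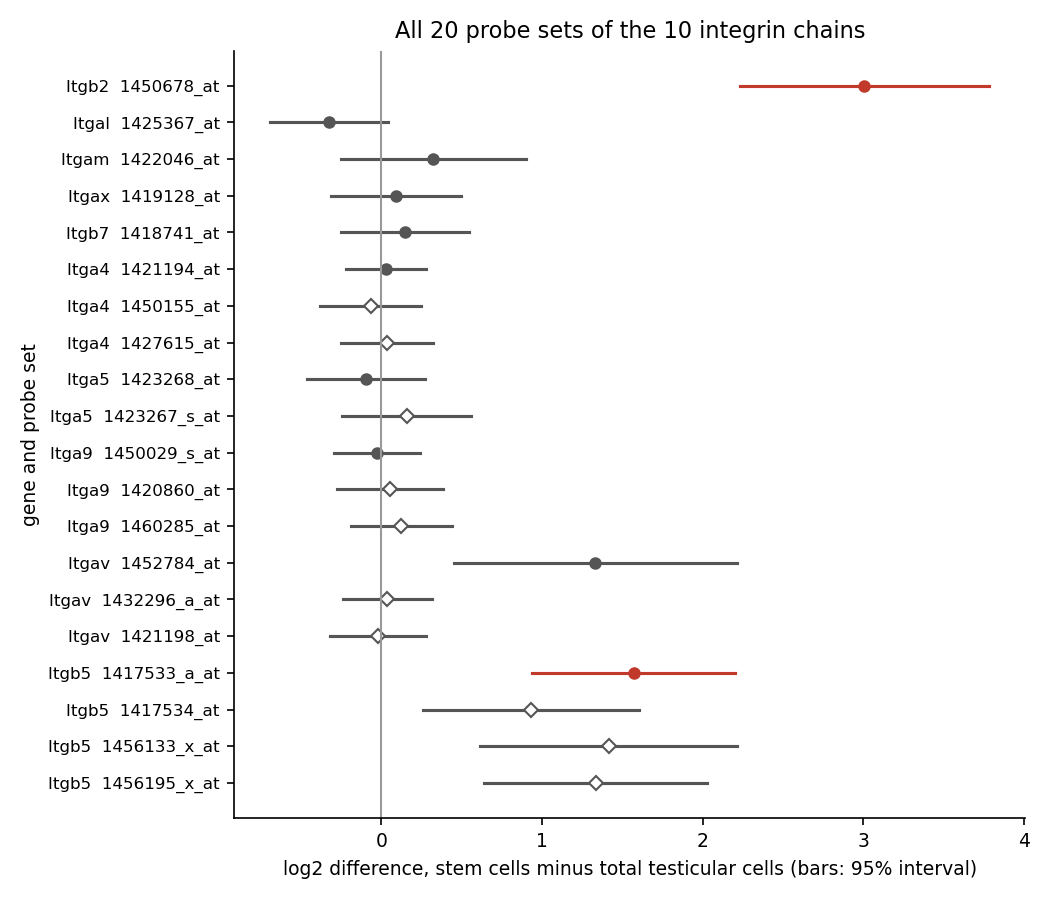
Log2 difference, stem cells minus total testicular cells, for all 20 probe sets (horizontal axis, bars are 95% intervals from limma; filled circles are the probe set with the highest mean of a gene, open diamonds the others, red those past the threshold). Itgb2 stands at 3.01, the 4 probe sets of Itgb5 lie between 0.93 and 1.57, and only 1 of the 3 Itgav probe sets departs from 0.

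Itgb7 and Itga4, which form a lymphocyte homing receptor, did not differ detectably. Itgb7 was at 3.62, 3.39 and 3.78 on the stem cell arrays and at 3.34, 3.52 and 3.50 on the others. It was about 1 log2 unit above background on all 6 arrays with overlapping groups (0.15, interval −0.25 to 0.54, limma adjusted p = 0.654). The 3 probe sets of Itga4 lay below the pooled background on every array, at 1.46 to 2.26. Against each array's own controls a few values lay slightly above, such as 2.26 on stem cell replicate 1 against 2.23. Itga4 was thus not clearly detected, and its differences of −0.07 to 0.04 carry no direction.

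Itgb5, the beta 5 chain, rose 2.97-fold. On its brightest probe set it was at 6.02, 4.90 and 5.64 on the stem cell arrays and at 3.72, 4.05 and 4.08 on the others. The lowest stem cell array, replicate 2, still exceeded the highest of the other group. The mean was 5.52 ± 0.57 (SD, n = 3) against 3.95 ± 0.20 (SD, n = 3), a difference of 1.57 ± 0.28 (SE, limma adjusted p = 0.0391). Itgb5 is the member with the most probe sets, and on all 4 of them the groups did not overlap. The other 3 gave 0.93, 1.41 and 1.33 without passing (adjusted p = 0.120, 0.0785 and 0.0653), and the last of these, like the one before, has a suffix (_x_at) for probes that may match other transcripts. The call is close to the threshold: it was lost without total testicular cell replicate 1, 2 or 3 (adjusted p = 0.204, 0.126 and 0.169), at differences of 1.45, 1.62 and 1.63. Without stem cell replicate 1, 2 or 3 it held (0.0292, 0.0203 and 0.0243). Within fluidics round 1 the Itgb5 difference was 2.12 and within round 3 it was 0.85. Blocking on the round gave 1.58 (adjusted p = 0.0296), a value that stem cell replicate 3, alone in its round, does not enter. Blocking on the module gave 0.82, from stem cell replicate 2 against total testicular cell replicate 3 only.

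Itgav, the alpha V chain and partner of beta 5, was at 4.70, 3.02 and 3.26 on the stem cell arrays of its brightest probe set. The others read 2.18, 2.70 and 2.11, of which 1 of 3 lay above background. Stem cell replicate 1 was far above the rest and replicates 2 and 3 only a little higher than total testicular cell replicate 2. The difference was 1.33 ± 0.39 (SE, interval 0.45 to 2.21) and did not pass (limma adjusted p = 0.104). Without stem cell replicate 1 it was 0.81 (adjusted p = 0.102), and it was 2.55 within fluidics round 1 and 0.32 within round 3. The other 2 probe sets of Itgav lay below background on all arrays (0.04 and −0.02).

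Itga5 and Itga9, alpha chains for fibronectin and for tenascin and related ligands, stayed near background in both groups. Itga5 was at 2.55, 2.32 and 2.69 on the stem cell arrays and at 2.38, 2.80 and 2.66 on the others (−0.10, interval −0.46 to 0.27, limma adjusted p = 0.757). Its second probe set gave 0.16. Itga9 was at 2.42, 2.30 and 2.33 against 2.26, 2.45 and 2.42 (−0.03, interval −0.30 to 0.24, adjusted p = 0.916). Further probe sets of Itga9 gave 0.05 and 0.12. For both genes the values of the groups interleaved, and a change of 1 log2 unit lay outside these intervals, as it did for 7 of the 10 members. Most of those 7 read near background, and Itga4 below it on every array. A probe set at background can miss a change, so these intervals do not exclude one there.

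Spi1 encodes PU.1, the ETS transcription factor of the series title, which binds purine-rich sites around the letters GAGGAA and is known to act on leukocyte integrin promoters. It differed by 1.40 in these arrays (limma adjusted p = 0.0684). The windows of 250 bases before the gene start, from RefSeq (GRCm38.p6), are shown for Itgam, the textbook myeloid chain, which did not pass, and for Itgb5, which rose. Capitals mark GAGGAA or, for the other strand, TTCCTC. The Itgam window is chr7:128062390-128062639 and the Itgb5 window chr16:33829415-33829664, both on the plus strand, written 5′ to 3′.
Itgam: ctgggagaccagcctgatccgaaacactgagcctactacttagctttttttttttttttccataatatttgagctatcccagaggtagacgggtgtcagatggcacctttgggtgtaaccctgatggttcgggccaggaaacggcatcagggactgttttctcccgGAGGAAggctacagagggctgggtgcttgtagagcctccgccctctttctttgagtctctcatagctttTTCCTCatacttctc
Itgb5: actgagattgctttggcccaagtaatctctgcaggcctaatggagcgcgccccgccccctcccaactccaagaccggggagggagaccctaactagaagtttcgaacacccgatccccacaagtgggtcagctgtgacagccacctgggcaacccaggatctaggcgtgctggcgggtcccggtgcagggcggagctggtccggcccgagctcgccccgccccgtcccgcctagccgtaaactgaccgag
Itgam had a match on each strand, beginning 84 and 15 bases before the start, and Itgb5 had none. Of the 10 members 8 had an entry, with 1 window each. Itgal and Itgb2 were not matched. The letters were found in 3 windows, those of Itga5, Itgam and Itgav (37.5%), against 23.3% of all 32851 windows of the same length. None of these matches is a measured binding site.

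Among the other chains of the family 1 passed. Of the 17 remaining integrin chains listed, 12 were measured, 1 rose, 0 fell and 11 did not pass (median difference −0.16, with 2 higher and 1 lower at an unadjusted p under 0.05 by limma). The riser was Itgb1, the beta 1 chain, at 5.81, 4.78 and 4.56 on the stem cell arrays against 3.43, 3.70 and 3.28 (1.58, adjusted p = 0.0470). Of its 6 probe sets only this one passed: the other bright one gave 1.88 (adjusted p = 0.0645), and 4 lay below background on all arrays (−0.03 to 0.32). All 3 stem cell arrays were higher, with replicate 1 the highest, as for Itgb2. Itga6, the laminin receptor chain used to enrich spermatogonia, differed by 0.99 (adjusted p = 0.0739) on its brighter probe set. The other Itga6 probe set, near background, gave −0.05 (adjusted p = 0.906). Itgb3, the other well known partner of alpha V, stayed near background (−0.08, adjusted p = 0.723).

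Ligands of these receptors gave 0 calls by limma on the brightest probe set of each gene. Among 14 measured ligands of leukocyte integrins, 2 were higher at an unadjusted p under 0.05 and 0 lower (median difference 0.03). Vcam1, the counter-receptor of alpha 4 chains, was at 8.58, 7.48 and 6.46 on the stem cell arrays against 5.36, 6.19 and 4.81. Its groups did not overlap, its difference was 2.05 (adjusted p = 0.0749), and 1 of its other probe sets passed (1.54, adjusted p = 0.0429). Icam1, the counter-receptor of LFA-1, was above background on stem cell replicate 1 alone by a clear margin, at 3.44 against 2.26 and 2.33 on the other stem cell arrays (0.34, adjusted p = 0.494). Of 12 matrix ligands, 3 were higher at an unadjusted p under 0.05 and 0 lower (median 0.00). Fn1, fibronectin, differed by 0.41 (adjusted p = 0.257), and Spp1, osteopontin, was not analysed here.

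Cytoplasmic partners of the beta chains were mixed. Of 14 measured genes of integrin activation, 0 passed by limma, 6 were higher and 1 lower at an unadjusted p under 0.05, and the median difference was 0.19. Fermt3, kindlin-3 of blood cells, which binds beta tails to activate them, had all stem cell arrays above the others on each of its 3 probe sets. They gave 0.53 (adjusted p = 0.114), 1.24 (adjusted p = 0.107) and 2.32 (adjusted p = 0.0408). The called probe set was below background on all 3 total testicular cell arrays. Tln1, talin, which also binds beta tails, gave −0.40 on its brighter probe set and 1.06 on the other, and neither passed. In the list of adhesion complex and signalling genes 1 of 18 rose, Lcp2, the adaptor SLP-76 of blood cells (1.65, adjusted p = 0.0463). There 5 genes were higher and 2 lower at an unadjusted p under 0.05, and the median was 0.01.

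**Figure D3:**
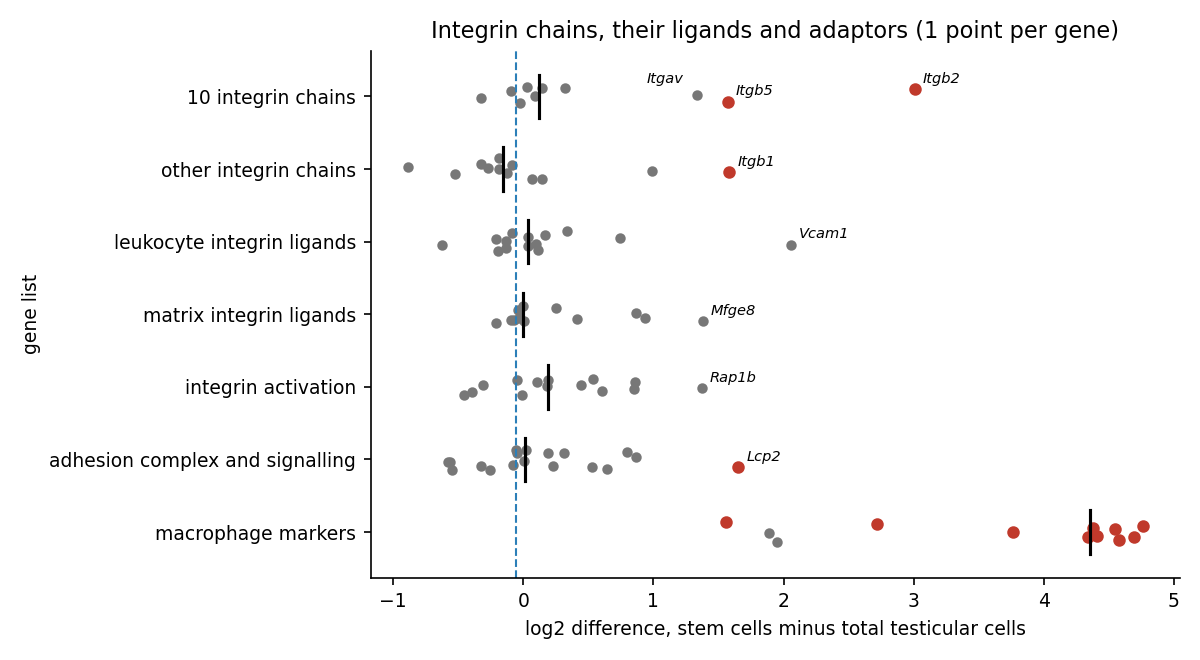
Log2 difference of each gene (1 point, its probe set with the highest mean) by list, with genes past the threshold in red, list medians as black lines and the median of all genes (−0.05) as a dashed line; vertical scatter within a list has no meaning. Itgb2, Itgb5, Itgb1 and Lcp2 are the genes in red in the 6 lists of integrin chains, ligands and partners plotted above the macrophage markers, whose median is 4.36.

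Cell type markers gave the following values beside these results. The macrophage list differed by a median of 4.36, and by 5.52, 3.92 and 3.55 on stem cell arrays 1, 2 and 3, and 0 of its 12 genes were below background on all arrays. Itgb2 departed by 3.92, 2.59 and 2.51 on the same arrays, in the same order, which the Leydig and myoid markers also had. Itgb5 departed by 2.07, 0.95 and 1.69 and thus had a different order, with replicate 3 above replicate 2. Leydig and myoid markers departed by 2.70, 1.54 and 0.34 (7 measured, 0 past the threshold by limma, 5 higher at an unadjusted p under 0.05). The part of any cell type in the integrin differences was not tested.

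Markers of other leukocytes did not pass. In the lists of neutrophils (8 measured), T and NK cells (7), B cells (5), dendritic cells (5) and mast cells (6), 0 genes passed by limma, and 2 in all were higher at an unadjusted p under 0.05. Their median differences were 0.10, 0.00, 0.05, −0.09 and 0.17. Genes below background on all arrays were Camp and Ngp of neutrophils, Cd3g of T cells, Ms4a1 and Blk of B cells, Xcr1 of dendritic cells, and Cpa3, Ms4a2 and Fcer1a of mast cells. The list of endothelial and platelet genes (8 measured) had a median of 0.07, and 7 of them did not pass by limma. Only Pf4, a platelet chemokine, rose (4.09, adjusted p = 0.00749), while Gp9, a platelet receptor subunit, differed by 0.10. Sertoli cell markers (6 measured) had a median of 0.09 with 0 past the threshold, also at an unadjusted p under 0.05. Later germ cell markers had a median level of 10.4 to 10.7 on the total testicular cell arrays and 10.1 to 10.6 on the stem cell arrays, with Prm1, a protamine of sperm chromatin, differing by −0.05.

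**Figure D4:**
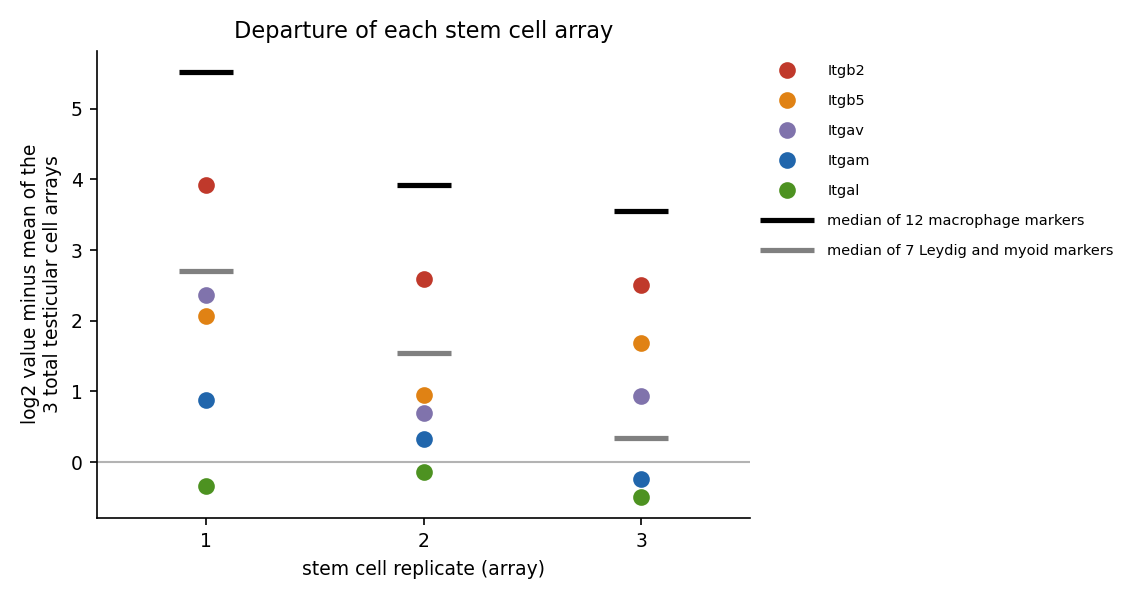
Each stem cell array (horizontal axis) less the total testicular cell mean, in log2 units, for 5 integrin chains (points) and for the median of 2 marker lists (bars). Itgb2 and both marker medians have the same order (array 1, then 2, then 3), Itgb5 is higher on array 3 than on array 2, and Itgal is below 0 on all 3 arrays.

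The profiles closest to those of the called chains were found by the root mean square difference in log2 units over the 6 arrays, after each gene was centred on its own mean. For Itgb2 the closest was Adgre1, a surface receptor of macrophages that is also on the macrophage list, at 0.182. Next came Tpp1, a lysosomal peptidase (0.187), Crip1, a LIM domain protein (0.205), Mpeg1, the pore-forming perforin-2 of macrophages (0.208), and Man2b1, a lysosomal mannosidase (0.213). For Itgb5 they were Ctsl, the lysosomal protease cathepsin L (0.166), Cnp (0.177), Themis2, a signalling adaptor of leukocytes (0.184), Galnt1, an enzyme of O-glycosylation (0.196), and Mapk14, the kinase p38 alpha (0.214). No gene stands in both sets of 5, but the measure follows the size of the difference, 3.01 for Itgb2 and 1.57 for Itgb5. Sets this close to each chain left no room for a shared gene. The arrays of 1 group share the group difference, so this is a description of likeness over 6 arrays only.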

How the data were processed

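Total RNA was hybridised to 1 array per sample. The authors deposited log2 probe set values, as the range of the values shows; per the submitters' processing notes MAS5 and RMA were used, with no role or version given, and background correction and normalization are not given in the sources used here. Other settings, read per the file headers, gave 3 inferred fluidics rounds (successive hybridization times less than 15 minutes apart) and 4 modules. All arrays share 1 chip lot, 1 scanner and 1 sample-type text. The deposited values were used as they stand, without 64 control probe sets.

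Groups came from the titles. limma 3.58.1 in R 4.3.3 (lmFit, eBayes with intensity trend, two-sided, Benjamini-Hochberg over 22626 probe sets, 4 residual and 5.21 prior degrees of freedom) compared them, and was tested on simulated data with 200 changed probe sets. There it called 61.2% of changes of 1 log2 unit, 83.6% of 2 and 98.5% of 4, with 9 false calls. Changes of 1 log2 unit can thus be missed. A gene stands by its probe set with the highest mean. Of the probe sets, 20380 name 1 gene, 691 several and 1555 none. Named were all 10 members, up to 6 called genes per list, genes fixed by name, 2 markers per list at most, and the 5 nearest profiles; Rap1b and other genes labelled in a plot were chosen after their values were seen. The members and lists were chosen with earlier results of these data known. No label says that a replicate number marks a shared preparation, so numbers were not treated as pairs. Deviations of same-numbered samples correlated at −0.01, 0.01 and 0.30 for replicates 1, 2 and 3. Background of the bacterial controls takes the place of depth, and the small number of arrays limits the precision.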

Additional observations from a re-analysis of the deposited data

How the results depend on the processing

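Itgb2 kept its direction under all 18 alternatives and passed under 16 (2.55 to 3.36). It missed with the fluidics module as a block and in an ordinary linear model (adjusted p = 0.313). Only 1 module held both groups, so the module block compares 1 stem cell array with 1 total testicular cell array. Itgb5 passed under 9 of 18 (0.82 to 1.88) and Itgav under 1, the replicate block (adjusted p = 0.0457). The count of members past the threshold was 2. It was 1 with quantile normalization, without the intensity trend, with the mean of all probe sets of a gene and at an adjusted p of 0.01. It was 0 with the module block (1 residual degree of freedom; 3 members at an unadjusted p under 0.05) and in the ordinary model (2), and 1 to 2 when each array was left out. The count over all probe sets was 350. It was 1261 with the replicate block, 1284 with the round block, 125 without the trend, 1001 with array weights and 53 at 0.01. It was 0 with the module block and 0 in the ordinary model (3537 and 3593 at an unadjusted p under 0.05), and 36 to 1622 when each array was left out: 36, 67 and 51 without total testicular cell replicate 1, 2 or 3, and 567, 1622 and 1523 without stem cell replicate 1, 2 or 3. The cause was not tested. Under the replicate block 3 members passed. Not every array's deviations correlated best with its own number: total testicular cell replicate 2 gave 0.30 with stem cell replicate 1 and 0.01 with stem cell replicate 2.

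None of the other 7 members passed under any alternative (lowest adjusted p = 0.106), and small differences turned sign in 6 of them, all but Itgam. Itga4 turned with median centring (−0.0844), array weights (−0.0071), the mean of probe sets (−0.0015) and another probe set (−0.0683), and was −0.0128 to 0.0765 when each array was left out. Itgax turned with median centring (−0.0193), the round block (−0.0317) and the module block (−0.396), with −0.0821 to 0.264 when each array was left out. With the module block, which compares 1 array with 1, Itgal (0.0451) and Itgb7 (−0.105) turned. Itga9 turned with the mean of probe sets (0.0494) and other probe sets (0.0523 and 0.123), with −0.0856 to 0.0115 when each array was left out. Itga5 turned with the mean (0.0301) and another probe set (0.157), with −0.214 to 0.0031 when each array was left out. Itgav turned with 1 other probe set (−0.0218). The values were on a log2 scale as deposited, so the alternative for linear values was not run.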
